A study of Mus musculus with 8 samples.

Results

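The microRNAs (miRNAs) miR-106a, miR-20b, miR-106b, miR-93 and miR-25 come from 2 genomic clusters that are paralogs, that is duplicated relatives, of the miR-17-92 cluster. They were taken by name, with earlier results of these data known, and are 5 of the 381 assays listed on the cards. In these livers 0 of the 5 passed the test between CCl4 treatment and untreated liver, where 32.5%, 30.1% and 3.01% of all tested assays passed at 1, 4 and 8 weeks. Between treatment times 1 value passed: miR-106a was lower at 8 weeks than at 1 week, a comparison in which 24.1% of all assays were called, and this call was lost under 11 of 19 alternative settings. Liver RNA of female C57B6 mice, which were 4 weeks of age when treatment began, was measured with TaqMan Array Rodent MicroRNA A Cards; every well is a quantitative PCR assay of a single small RNA. Groups were untreated mice, labelled as given nothing, and mice injected into the peritoneum with carbon tetrachloride (CCl4), a liver toxin, in corn oil over 1, 4 or 8 weeks. Each of the 4 groups had 2 cards, 8 in all. The dose is 1 mg/kg in the labels and 1 ml/kg in the methods. The labels name no group given corn oil alone and no age at sampling, so the oil, the age and the toxin cannot be told apart. They also do not say whether the 2 replicates of a group were separate mice. The series' design text gives 4, 3 and 2 mice for the 1-, 4- and 8-week groups, which equals the number of cards only at 8 weeks, so how cards relate to mice is not known and a p-value here measures the spread between cards, which may be technical.

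A miRNA is a short RNA that lowers the output of messenger RNAs that pair with it, mostly through bases 2 to 8 from its 5′ end, the seed. The miR-17-92 cluster and its paralogs encode the miR-17 family, which is known for promoting cell division by lowering inhibitors of the cell cycle, and the miR-25/miR-92 family, which has a different seed. The miR-106b-25 cluster lies in an intron of Mcm7, a gene for a subunit of the replicative helicase, and is transcribed with it in dividing cells; the miR-106a-363 cluster lies on the X chromosome.

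The mature sequences are shown because they set which members share targets and how closely the assays resemble each other. They are RefSeq's for GRCm38.p6, written 5′ to 3′ with the seed in capitals. Members were matched by name, 5 of 5. The assay names carry no arm, and the arm shown is the one that the unsuffixed name has stood for.
miR-106a-5p: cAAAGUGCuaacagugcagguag
miR-20b-5p: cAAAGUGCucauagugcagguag
miR-106b-5p: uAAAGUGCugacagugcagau
miR-93-5p: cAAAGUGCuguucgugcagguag
miR-25-3p: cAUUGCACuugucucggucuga
Their relatives from the miR-17-92 cluster on chromosome 14 are shown for comparison.
miR-17-5p: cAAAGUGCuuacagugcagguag
miR-20a-5p: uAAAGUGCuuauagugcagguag
miR-92a-3p: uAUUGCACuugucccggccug

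Of the 5, 4 share the seed AAAGUGC and miR-25 carries AUUGCAC, which it shares with miR-92a. Counted from the 5′ end, miR-106a and miR-17 differ at 1 of 23 positions (A10U, miR-106a's base first), and miR-106a and miR-20b at 2 (A10C and C12U). miR-106a and miR-93 differ at 4 of 23 positions, all after the seed. miR-25 and miR-92a differ at 3 of the 21 positions they share. How far an assay also reads a close relative was not tested.

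In GRCm38.p6 the hairpins of the miR-106b-25 cluster lie on the minus strand of chromosome 5 within 498 bases, from 138165321 to 138165818, inside the gene model of Mcm7. In transcription order they are Mir106b (138165737 to 138165818), Mir93 (138165523 to 138165610) and Mir25 (138165321 to 138165404). The 6 hairpins of the miR-106a-363 cluster lie within 875 bases of the minus strand of chromosome X, from 52741693 to 52742567, with Mir106a at 52742503 to 52742567 and Mir20b at 52742113 to 52742192. The files with the values name no build, and these positions are the reference's own.

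The measurement is the threshold cycle (Ct), at which an assay's signal crosses a fixed threshold, so that a Ct lower by 1 stands for about a doubling of template. On these cards 193 to 235 assays had a determined Ct, and the mean Ct of 149 assays below Ct 35 on every card ran from 27.5 to 29.8. The second 4-week card had the fewest determined assays, 193, and the highest mean Ct, 29.8. The level used below is that mean for the card minus the assay's Ct, a log2 scale on which a negative level is fainter than the card's mean. The liver miRNA miR-122 had a Ct between 21.95 and 24.16 on every card. In a whole-liver extract, a change in the number of cells of a type and a change in RNA per cell cannot be told apart.

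All 5 members were determined on 8 of 8 cards, had a mean Ct below 35 and were among the 166 assays tested. Their Ct stood in one order on 8 of 8 cards: miR-106a, then miR-93, miR-106b, miR-25 and miR-20b. The mean Ct was 25.7 for miR-106a, 27.6 for miR-93, 28.9 for miR-106b, 31.5 for miR-25 and 32.2 for miR-20b, or ranks 28, 51, 78, 125 and 136 of the 166 from the lowest Ct. The closest neighbours were miR-25 and miR-20b, whose Ct differed by 0.666 ± 0.348 (SD over 8 cards), with a lowest difference of 0.23. The pooled replicate SD of that difference was 0.40, and the lowest differences, 0.23 and 0.28, were within it, so these neighbours were not separated beyond the replicate spread on every card. Assays can differ in efficiency, so the order is of Ct and not of molecule number. miR-106a and miR-20b, from hairpins of the X cluster, differed by 5.45 to 7.75 cycles. Within the Mcm7 cluster miR-93 and miR-25 differed by 3.20 to 4.70 cycles, and miR-106b and miR-93 by 0.46 to 1.78.

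**Figure D1:**
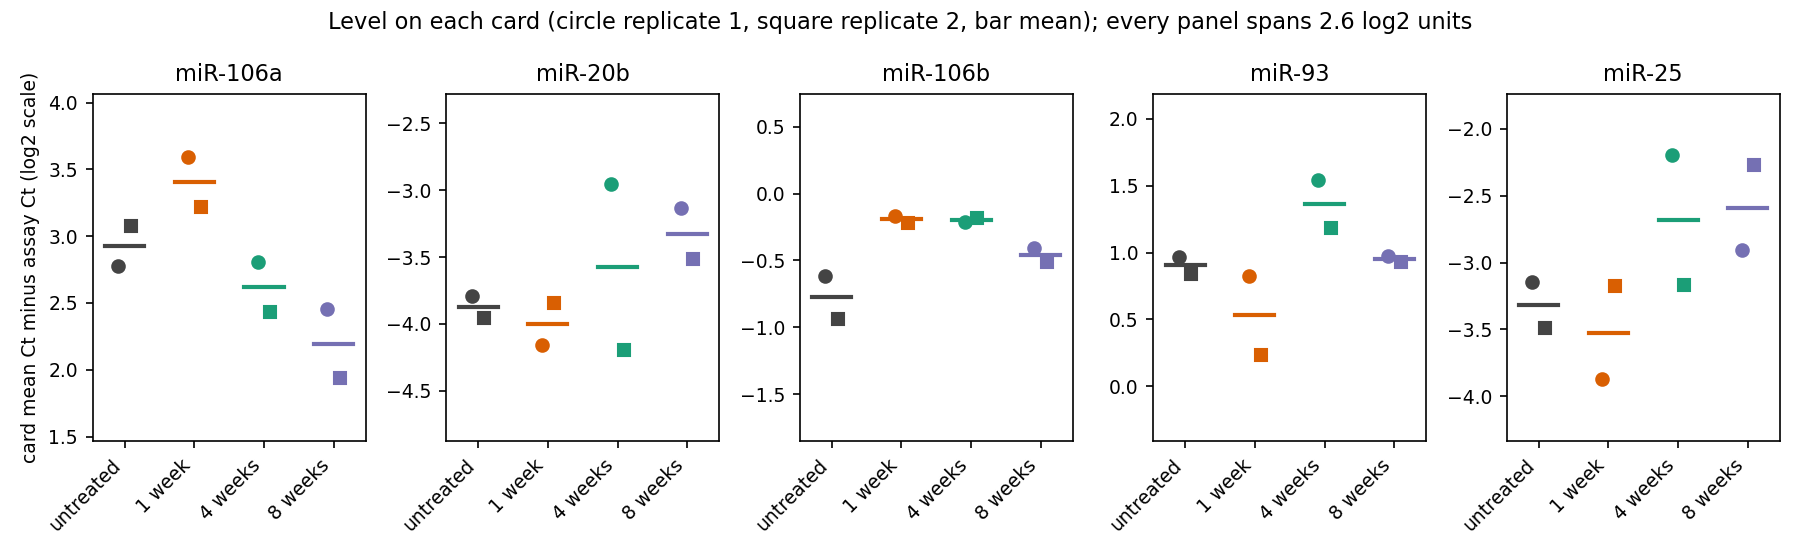
Level of each member on each of the 8 cards (card mean Ct minus assay Ct, log2 scale; circles replicate 1, squares replicate 2, bars the mean of 2 cards), with panels of equal height in log2 units. The miR-106a cards are highest at 1 week, with the lowest mean at 8 weeks, where the cards overlap those of 4 weeks, the 6 CCl4 cards of miR-106b lie above both untreated cards, and the 4-week cards of miR-20b and miR-25 lie far apart.

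miR-106a, a miR-17-family member of the X cluster, was the member with the lowest Ct. Its levels were 2.78 and 3.07 in untreated liver, 3.60 and 3.22 after 1 week, 2.80 and 2.43 after 4 weeks and 2.45 and 1.94 after 8 weeks. Both 1-week cards were above both untreated cards, the 4-week cards overlapped the untreated ones, and both 8-week cards were below them. Relative to the untreated mean the linear level was 1.41 ± 0.26 (SD, n = 2 cards) at 1 week, 0.816 ± 0.147 at 4 weeks and 0.614 ± 0.153 at 8 weeks. The log2 differences from untreated were 0.48 (standard error, SE, 0.33, limma, adjusted p = 0.275 after Benjamini-Hochberg adjustment over 166 assays) at 1 week, -0.30 (adjusted p = 0.505) at 4 weeks and -0.73 (adjusted p = 0.201) at 8 weeks. None of these passed an adjusted p of 0.05, and the 95% confidence interval at 8 weeks, -1.49 to 0.04, includes 0.

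Between treatment times miR-106a fell by 1.21 on the log2 scale from 1 week to 8 weeks (SE 0.33, 95% confidence interval -1.97 to -0.45, adjusted p = 0.0332), a ratio of 0.432 (0.255 to 0.734). In that comparison 24.1% of the 166 tested assays were called, so a call in 1 of 5 members is near the background share. From 1 week to 4 weeks the difference was -0.79 (adjusted p = 0.0841), and from 4 weeks to 8 weeks it was -0.42 (adjusted p = 0.499). The call for 8 weeks against 1 week was lost under 11 of 19 alternatives, while the direction held in all 19 (-1.47 to -0.51). Centring on all determined assays of each card gave -0.92 (adjusted p = 0.244), quantile normalization -0.55 (adjusted p = 0.196) and control RNAs -0.51 (adjusted p = 0.306). Adjusted p was 0.0543 without the first untreated card, 0.0501 without the second, 0.170 without the first 1-week card, 0.103 without the second and 0.196 without the second 8-week card.

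**Figure D2:**
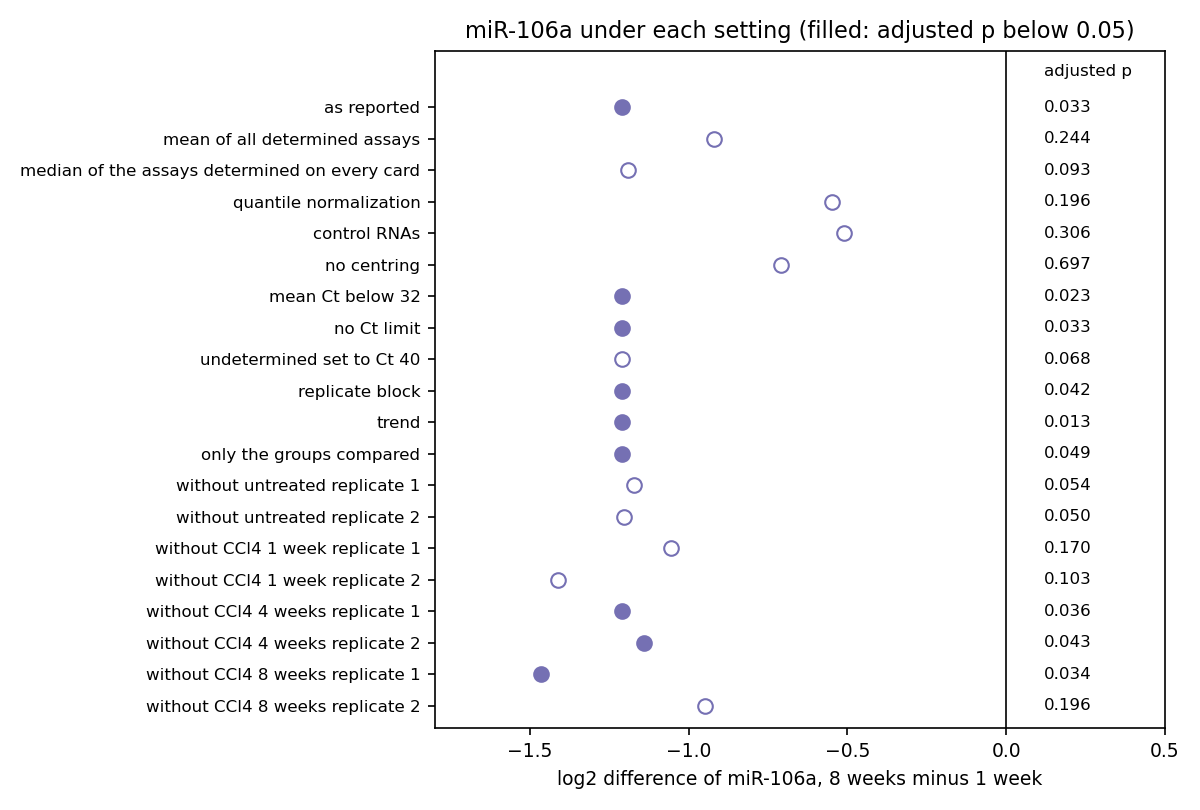
Log2 difference of miR-106a between 8 weeks and 1 week as reported and under each of 19 alternatives, with the limma adjusted p printed at the right; filled circles are below 0.05. All points lie left of 0, between -1.47 and -0.51, and 11 of the 19 alternatives are open.

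Of the 3 RNAs of the control centring, U6 and snoRNA202 were called in some comparisons and snoRNA135 in none of the 7. U6, the RNA of a splicing particle, was 2.38 higher on the log2 scale at 1 week than in untreated liver (adjusted p = 0.0080) and 1.50 lower at 4 weeks (log2 difference -1.50, adjusted p = 0.0417), under limma. From 1 week to 8 weeks U6 fell by 3.49 (adjusted p = 0.0046). Centring on U6, snoRNA135 and snoRNA202 shifted the median difference of all tested assays from 0.10 to 0.80 for 8 weeks against 1 week. The U6 differences kept their sign under the other centrings except quantile normalization, which sets U6 to 0, and the 3 calls held under 3, 2 and 4 of the 5 other centrings in this order.

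miR-20b, a miR-17-family member encoded in the same cluster as miR-106a, was the faintest member. Its levels were -3.79 and -3.96 in untreated liver, -4.15 and -3.84 after 1 week, -2.96 and -4.20 after 4 weeks and -3.14 and -3.51 after 8 weeks. The 4-week cards enclosed both untreated cards, and both 8-week cards were above them. Linear levels were 0.924 ± 0.141 (SD, n = 2 cards) of untreated at 1 week, 1.35 ± 0.771 at 4 weeks and 1.48 ± 0.27 at 8 weeks. The log2 differences were -0.12 (SE 0.43, adjusted p = 0.855), 0.30 (adjusted p = 0.632) and 0.55 (adjusted p = 0.402, 95% confidence interval -0.45 to 1.56). At 4 weeks the direction rested on 1 card: without the first 4-week card the difference was -0.32 and without the second it was 0.92.

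The rest of the X cluster gave little more. miR-18b and miR-363 were determined on 0 of 8 cards. miR-19b and miR-92a, which were read on every card, have hairpins in both this cluster and miR-17-92, and their mature RNA cannot be assigned to either. miR-19b, of a family with another seed, was at -0.10, -0.41 and -0.44 against untreated at 1, 4 and 8 weeks, and miR-92a, a seed relative of miR-25, at -0.43, 0.72 and 0.04. None of these 6 values passed the test, and of the 4 tested assays of the cluster 0 were called against untreated at any time. An assay for the other arm of rat miR-20b, rno-miR-20b-3p, was determined on 0 of 8 cards, as was the plant control assay miR159a.

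miR-106b, the first hairpin of the cluster in Mcm7, had the smallest replicate spread of the 5. Its levels were -0.61 and -0.94 in untreated liver, -0.16 and -0.22 after 1 week, -0.22 and -0.19 after 4 weeks and -0.41 and -0.51 after 8 weeks. All 6 CCl4 cards were above both untreated cards. Linear levels were 1.50 ± 0.043 (SD, n = 2 cards) of untreated at 1 week, 1.49 ± 0.022 at 4 weeks and 1.25 ± 0.064 at 8 weeks. The log2 differences were 0.58 (SE 0.27, 95% confidence interval -0.05 to 1.21, adjusted p = 0.134), 0.58 (adjusted p = 0.142) and 0.32 (adjusted p = 0.429), and none passed. With the 3 CCl4 groups averaged, the difference was 0.49 (SE 0.22, 95% confidence interval -0.02 to 1.00, adjusted p = 0.141).

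In that comparison of any CCl4 with untreated, 28.9% of the tested assays were called, and the CCl4 cards lay wholly to one side of the untreated cards for 29.5%. miR-106b was the 1 member of 5 with that separation. Its pooled replicate SD was 0.122, and 4 of the 166 tested assays had a smaller one, against a median of 0.39. The moderated limma test uses a spread drawn toward that of all assays. Under control-RNA centring miR-106b was 1.22 above untreated at 4 weeks (adjusted p = 0.0358), where the median of all assays stood at 0.67. Without centring its 4-week difference was -0.27 (adjusted p = 0.872), where the median of all assays was at -0.82.

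miR-93, a miR-17-family member from the middle hairpin of the same cluster, had levels of 0.97 and 0.84 in untreated liver, 0.83 and 0.24 after 1 week, 1.54 and 1.18 after 4 weeks and 0.97 and 0.93 after 8 weeks. The 1-week cards were both below the untreated cards, the 4-week cards both above, and the 8-week cards overlapped the untreated cards. Linear levels were 0.788 ± 0.224 (SD, n = 2 cards) of untreated at 1 week, 1.39 ± 0.243 at 4 weeks and 1.03 ± 0.023 at 8 weeks. The log2 differences were -0.37 (SE 0.31, adjusted p = 0.360), 0.46 (adjusted p = 0.289) and 0.05 (adjusted p = 0.922). Between 1 week and 4 weeks miR-93 was at 0.83 (95% confidence interval 0.10 to 1.56, unadjusted p = 0.0302, adjusted p = 0.0626), which missed the threshold. Under limma with a trend on mean Ct its adjusted p was 0.0363, and that of miR-106a in the same comparison 0.0406.

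miR-25, the last hairpin of the cluster and the member with the other seed, had levels of -3.14 and -3.49 in untreated liver, -3.87 and -3.17 after 1 week, -2.20 and -3.17 after 4 weeks and -2.91 and -2.27 after 8 weeks. The 1-week and 4-week cards overlapped the untreated ones, and both 8-week cards were above them. Linear levels were 0.892 ± 0.301 (SD, n = 2 cards) of untreated at 1 week, 1.64 ± 0.752 at 4 weeks and 1.70 ± 0.52 at 8 weeks. The log2 differences were -0.21 (SE 0.44, adjusted p = 0.729), 0.64 (adjusted p = 0.302) and 0.73 (95% confidence interval -0.30 to 1.76, adjusted p = 0.285). With 1 card left out, the 4-week difference ran from 0.15 to 1.12 and the 8-week difference from 0.41 to 1.05. Against 1 week miR-25 was at 0.84 at 4 weeks (adjusted p = 0.145) and at 0.94 at 8 weeks (adjusted p = 0.150). The interval of the 8-week ratio to untreated ran from 0.81 to 3.39, so the 2 cards a group did not resolve a change of the size estimated.

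**Figure D3:**
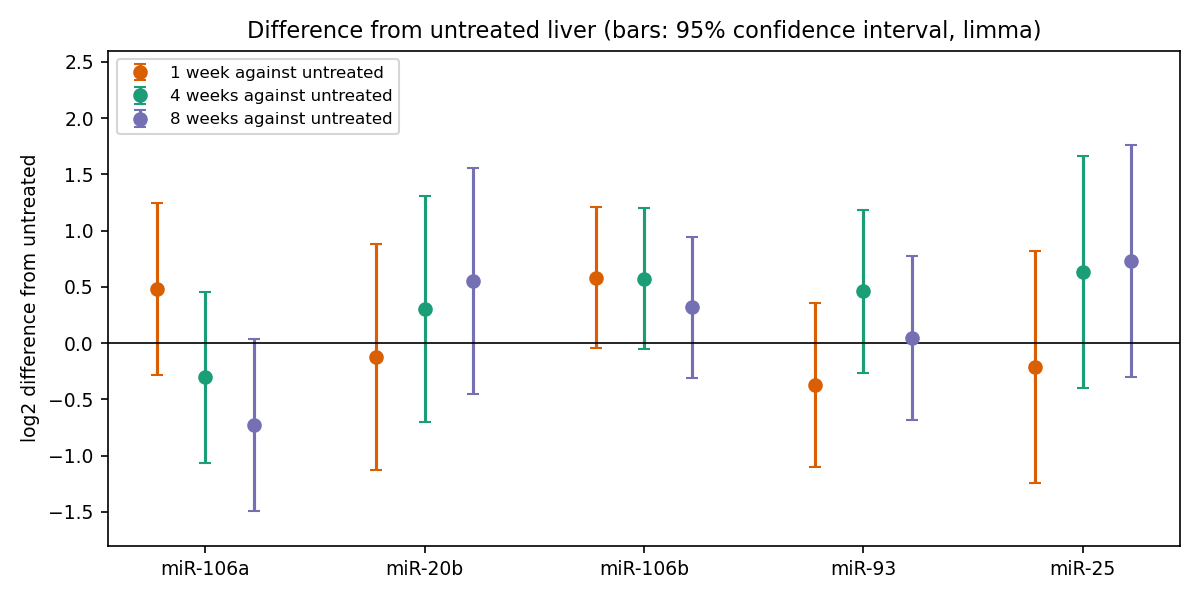
Log2 difference of each member from untreated liver at 1, 4 and 8 weeks (points) with the 95% confidence interval from limma (bars). All 15 intervals include 0; miR-106a goes from 0.48 to -0.73 across the times while miR-25 goes from -0.21 to 0.73.

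Against untreated liver 0 of the 5 members were called at 1 week, where 32.5% of the tested assays were, 0 of 5 at 4 weeks (30.1%) and 0 of 5 at 8 weeks (3.01%), by limma's adjusted p. At an unadjusted p of 0.05 the count was also 0 of 5 at each time and for any CCl4, while 73, 73 and 40 of the 166 assays met it at 1, 4 and 8 weeks and 64 for any CCl4. The members' median log2 difference was -0.12 at 1 week (all assays -0.09), 0.46 at 4 weeks (0.03), 0.32 at 8 weeks (-0.04) and 0.24 for any CCl4 (-0.03). Between times, 0 of 5 were called for 4 weeks against 1 week (47.0% of all assays), 1 of 5 for 8 weeks against 1 week and 0 of 5 for 8 weeks against 4 weeks (1.20%). At an unadjusted p of 0.05 these counts were 2, 1 and 0 of 5, beside 94, 70 and 27 of the 166 assays. The medians of the members were 0.42, 0.42 and -0.26 in these 3 comparisons, and those of all assays -0.03, 0.10 and -0.01.

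With 2 cards a group, cards that do not overlap are common. At 1 week the cards of 3 members did not overlap untreated (76.5% of all tested assays), with miR-106a and miR-106b higher and miR-93 lower. At 4 weeks it was 2 members (68.1%), miR-106b and miR-93, both higher. At 8 weeks it was 4 members (60.8%), with miR-106b, miR-20b and miR-25 higher and miR-106a lower. Between 4 weeks and 1 week the cards of 3 members did not overlap (74.7%), between 8 weeks and 1 week those of 5 members (71.7%) and between 8 weeks and 4 weeks those of 2 (47.0%). Between 8 weeks and 1 week miR-106a and miR-106b were lower, and miR-20b, miR-93 and miR-25 higher. The comparisons with untreated liver share its cards, and those with 1 week share the 1-week cards. The comparison of 8 weeks with 4 weeks uses neither, but its cards also enter the others.

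Differences of raw Ct between members on the same card do not depend on which value is subtracted from the whole card; quantile normalization, which is no such subtraction, does change them. miR-106a crossed the threshold before miR-25 by 5.92 and 6.56 cycles in untreated liver, 7.47 and 6.39 after 1 week, 5.0 and 5.60 after 4 weeks and 5.36 and 4.21 after 8 weeks. The lead of miR-106a was thus longest at 1 week, with a mean of 6.93 cycles, and shortest at 8 weeks, with 4.79 (group means of the Ct difference -6.93 and -4.79). Over the 8 cards this difference spanned 3.26 cycles, and 44.6% of the 13695 pairs of tested assays spanned more, with a median span of 3.06. It was the widest of the 10 member pairs and unexceptional among pairs of assays.

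From 1 week to 8 weeks miR-106a also drew closer to each of the other 3. Its mean Ct difference from miR-20b was -6.80 in untreated liver, -7.41 at 1 week, -6.20 at 4 weeks and -5.52 at 8 weeks. From miR-93 it was -2.02, -2.88, -1.26 and -1.25, and from miR-106b -3.70, -3.60, -2.82 and -2.66. On both 8-week cards miR-106a was closer to each of the other 4 members than on either 1-week card. All 4 differences contain the same miR-106a Ct. The share of all assay pairs that separate in this way was not counted, and 71.7% of single assays separated between these times. The pairs of miR-106a with miR-93 and miR-106b spanned 1.97 and 1.56 cycles over the cards, and 81.4% and 91.2% of all pairs spanned more. The 6 pairs without miR-106a spanned 1.01 to 1.95 cycles. Among these miR-20b and miR-25, from different clusters and with different seeds, spanned 1.01 cycles, and 98.4% of all pairs spanned more. The 3 pairs within the Mcm7 cluster spanned 1.32 cycles for miR-106b and miR-93, 1.50 for miR-93 and miR-25 and 1.95 for miR-106b and miR-25, and 94.8%, 92.2% and 81.9% of all pairs spanned more. miR-106a and miR-20b, the pair within the X cluster, spanned 2.30, and 72.1% spanned more.

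**Figure D4:**
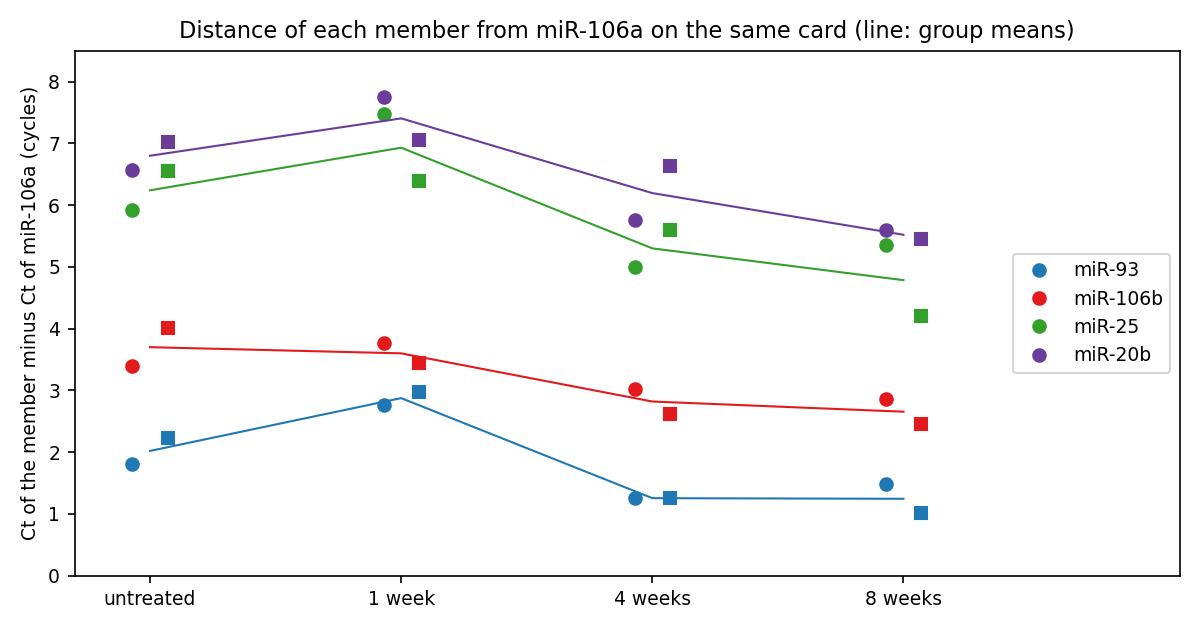
Ct of miR-93, miR-106b, miR-25 and miR-20b minus the Ct of miR-106a on the same card, in cycles, for the 8 cards (circles replicate 1, squares replicate 2, lines through group means). Every other member is later than miR-106a on every card, and the group means are smaller at 8 weeks than at 1 week for all 4, for example 4.79 against 6.93 cycles for miR-25.

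The member assays were next set beside the other assays by Pearson's r of the levels over the 8 cards, given as a description. The 8 points come from 4 groups and share the centring of their card. The assay most like miR-106a was miR-17 (r = 0.97), the miR-17-92 member that differs from it at 1 base, followed by U6 (0.87) and miR-16 (0.86). On the same card the Ct of miR-106a was above that of miR-17 by 1.16 and 1.39 in untreated liver, 1.23 and 1.21 after 1 week, 1.37 and 1.41 after 4 weeks and 1.27 and 1.58 after 8 weeks. This span of 0.42 cycles was narrower than that of all but 4 of the 13695 pairs of tested assays. miR-17 stood at 0.43, -0.19 and -0.58 against untreated at 1, 4 and 8 weeks, and from 1 week to 8 weeks its difference was -1.0 (adjusted p = 0.0561 from limma), which shrank to -0.06 for miR-17 under quantile normalization. miR-16, of another seed family, was at -1.95 from 1 week to 8 weeks (adjusted p = 0.0332); under the 5 other centrings its values ran from -1.93 to -0.82, with a call under 1.

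miR-106b was most like miR-142-5p (r = 0.95), miR-450a-5p (0.90) and miR-223 (0.87). miR-142-5p and miR-223 are on the list of leukocyte miRNAs. Of the 7 leukocyte miRNAs, 6, 7 and 7 had a log2 difference from untreated above 0 at 1, 4 and 8 weeks. Called higher were 6, 4 and 0, where 32.5%, 30.1% and 3.01% of all tested assays were called in either direction. All 7 were determined on every card, and their summed level, on the log2 scale, was 4.70 and 5.46 in untreated liver, 7.11 and 7.0 after 1 week, 7.04 and 6.58 after 4 weeks and 6.11 and 5.60 after 8 weeks. The sum was thus higher on all 6 CCl4 cards than on the untreated ones, as was miR-106b, and was lower at 8 weeks than at the earlier times. The part of leukocyte RNA in the miR-106b levels was not tested. The size differed: miR-142-5p was at 1.63, 1.60 and 0.97 against untreated, with limma adjusted p of 0.0079, 0.0076 and 0.114, against 0.58, 0.58 and 0.32 for miR-106b. The 1-week and 4-week calls of miR-142-5p each held under 3 of the 5 other centrings, where its 4-week value ran from 0.75 to 2.24. The list did not move as one: miR-142-3p, the other arm of the same hairpin, was at -0.20 at 1 week (adjusted p = 0.647) and 2.0 at 4 weeks (adjusted p = 0.0053), and miR-150 was at 1.97, 0.13 and 0.02 at the 3 times.

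miR-93 was most like let-7i (r = 0.89), miR-20a (0.86) and miR-324-5p (0.85). miR-20a, its seed relative in miR-17-92, was lower at 1 week (log2 difference -1.31, adjusted p = 0.0362) and higher at 4 weeks than at 1 week (1.34, adjusted p = 0.0270), the comparison in which miR-93 was at 0.83. The latter call of miR-20a held under 2 of the 5 other centrings. miR-20b was most like miR-25 (0.79), miR-215 (0.78) and miR-199a-3p (0.66). miR-25 was most like miR-451 (0.85), miR-199a-3p (0.82) and miR-20b (0.79). miR-106a and miR-25 had r = -0.73. By this measure r within a cluster was 0.09 for miR-106b and miR-93, 0.08 for miR-106b and miR-25, 0.48 for miR-93 and miR-25 and -0.40 for miR-106a and miR-20b.

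**Figure D5:**
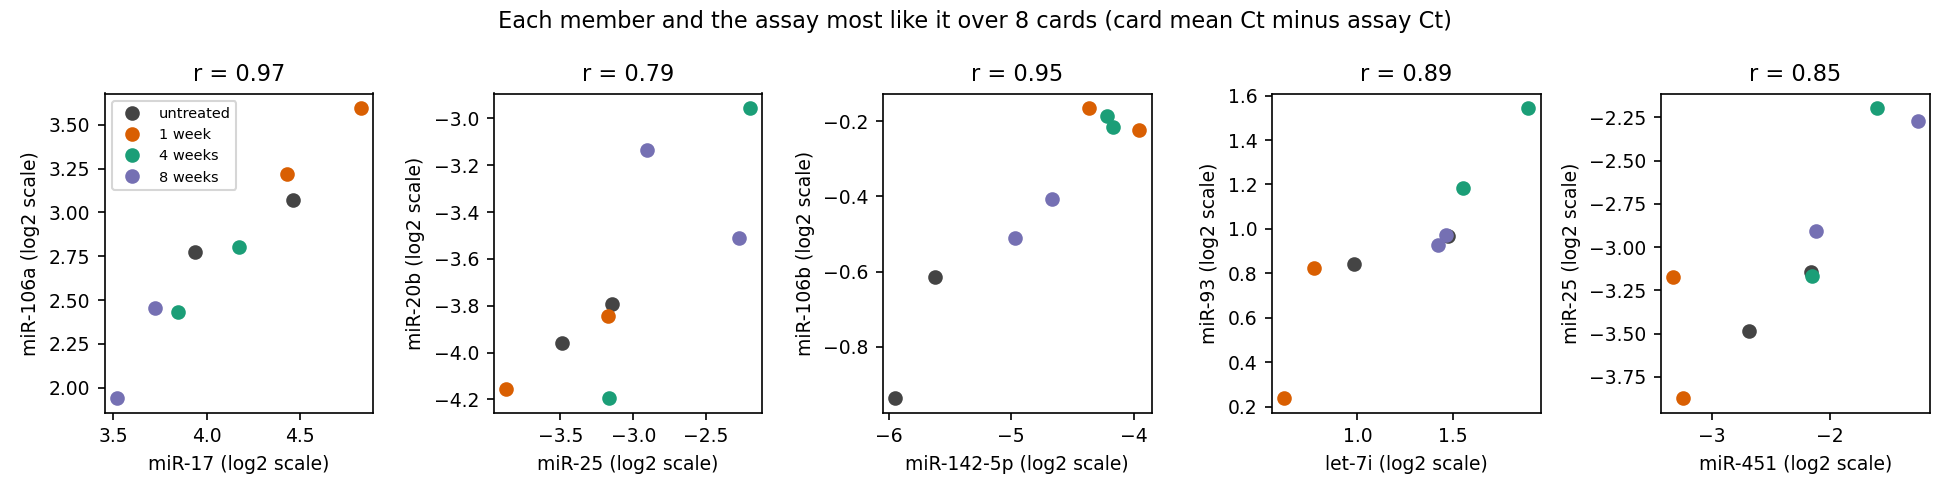
Level of each member (vertical axes) against that of the assay most like it over the 8 cards (horizontal axes), both as card mean Ct minus assay Ct on the log2 scale, with groups in colour. The r above the panels runs from 0.79 for miR-20b with miR-25 to 0.97 for miR-106a with miR-17, and the 2 untreated cards are the lowest 2 for miR-106b.

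miR-451 is made in red cells, and beside miR-25 it was at -0.86, 0.55 and 0.74 against untreated at 1, 4 and 8 weeks. It rose from 1 week to 4 weeks (1.40, adjusted p = 0.0242) and from 1 week to 8 weeks (1.60, adjusted p = 0.0320), where miR-25 was at 0.84 and 0.94. These miR-451 calls held under 4 and 3 of the 5 other centrings. Of the 3 erythroid miRNAs listed, 2 were tested, and their summed level was 1.13 and 0.75 in untreated liver, 0.94 and 1.15 after 1 week, 0.72 and 1.00 after 4 weeks and 0.89 and 1.24 after 8 weeks. The groups overlapped in this sum, which is mostly miR-486, and the part of blood in the miR-25 levels was not tested. miR-199a-3p, a miRNA of stellate and other mesenchymal cells, was at 1.10 at 4 weeks against untreated (adjusted p = 0.0457), with a range of 0.25 to 1.74 under the 5 other centrings and a call under 1 of them. Of the 4 tested mesenchymal miRNAs 3 were above 0 at 4 weeks and 2 were called higher, where 30.1% of all tested assays were called. miR-143 was at -0.34 (limma adjusted p = 0.354). The summed level of the 4 tested mesenchymal miRNAs of 6 was 3.56 and 3.39 in untreated liver, 3.55 and 3.46 after 1 week, 3.78 and 4.22 after 4 weeks and 3.38 and 3.69 after 8 weeks.

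The summed level of the 6 tested hepatocyte miRNAs was 7.87 and 7.82 in untreated liver and 7.05 and 7.10 after 1 week. It was 6.29 and 6.45 after 4 weeks and 7.09 and 7.31 after 8 weeks. Against untreated, the log2 differences of 6, 6 and 5 of them were below 0 at 1, 4 and 8 weeks. Called lower were 1, 5 and 1, where 32.5%, 30.1% and 3.01% of all tested assays were called in either direction. The 2 endothelial miRNAs, both arms of miR-126, were called lower at 4 weeks. Their sums were 7.91 and 8.41 in untreated liver, 8.80 and 8.73 after 1 week, 6.75 and 5.95 after 4 weeks and 7.67 and 6.84 after 8 weeks, above untreated at 1 week and below it at 8 weeks, as miR-106a was. At 4 weeks these sums were lowest, while miR-106a overlapped untreated liver then and had its lowest mean at 8 weeks. The part of endothelial RNA in the miR-106a levels was not tested.

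The miR-17-92 cluster itself was read by 6 assays, all tested. Against untreated, 1 was called lower at 1 week (miR-20a), 1 was called higher at 4 weeks and 0 were called at 8 weeks. Of all tested assays 32.5%, 30.1% and 3.01% were called at these times. The one called higher was miR-18a, of a seed close to but distinct from that of miR-17, at 1.51 (adjusted p = 0.0457 from limma) with a mean Ct of 33.2. Under the 5 other centrings both kept their direction, with miR-20a at 1 week called under 3 and miR-18a at 4 weeks under 1. The cluster's median differences were -0.02, -0.08 and -0.32 at the 3 times, against -0.12, 0.46 and 0.32 for the paralog members. This contrast was not tested. The medians of the 3 miRNAs of the Mcm7 cluster were -0.21, 0.58 and 0.32, and those of the 4 tested assays of the X cluster -0.11, -0.0024 and -0.20.

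Grouped by seed instead, the 6 miRNAs with AAAGUGC had medians of 0.15, 0.17 and -0.17 at 1, 4 and 8 weeks, with 1 called lower at 1 week (miR-20a) and 0 called at the other times. At 1 week 3 of the 6 were above 0 and 3 below. From 1 week to 8 weeks the cards of all 6 separated, 3 lower (miR-106a, miR-106b and miR-17) and 3 higher (miR-20a, miR-20b and miR-93); of all tested assays 71.7% separated in this comparison, 59 higher and 60 lower. Under the 5 other centrings miR-106a and miR-17 stayed below 0 and miR-20a, miR-20b and miR-93 above it, while miR-106b was above 0 under 3 of them. Of the 6 listed miRNAs with the miR-25 seed, 2 were tested, miR-25 and miR-92a. miR-32 was determined on 7 cards, miR-367 on 2 and miR-363 on 0. Against untreated, miR-25 and miR-92a were at -0.21 and -0.43 after 1 week and at 0.64 and 0.72 after 4 weeks. After 8 weeks they were at 0.73 and 0.04, the value of miR-92a being small beside its SE of 0.49. Without the first 1-week card miR-25 was at 0.17 after 1 week. Of the 6 values 0 passed.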

How the data were processed

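Total liver RNA was run by the authors on TaqMan Rodent MicroRNA A Cards, 2 per group. They deposited threshold cycles (Ct), entered here as a score with no fixed range, per assay and card, not normalized and not pooled. They also deposited a table of fold changes to the untreated group from DataAssist after global geometric-mean normalization, which was not used.

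The centre of a card was its mean Ct across 149 assays that stayed below Ct 35 throughout, and the Ct of each assay was subtracted from it. limma 3.58.1 (R 4.3.3; lmFit, eBayes, 1 model, prior degrees of freedom 3.47, residual 4) was run on the 166 assays that were determined on all 8 cards and averaged below Ct 35, with Benjamini-Hochberg adjustment at 0.05 within each of 7 comparisons. The procedure was tested on simulated data. Tables were made with pandas 2.3.3 and plots with matplotlib 3.10.9.

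Groups and replicate numbers come from the labels. Named assays are the members, the related clusters and seed families, the control RNAs and, for each member, the 3 assays with the highest r over the cards. Members and lists were chosen with earlier results of these data known. Alternatives were other centrings, Ct limits, undetermined values at Ct 40, a replicate block, a trend, fits to the groups compared and each card left out. The number of cards limits the precision.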

Additional observations from a re-analysis of the deposited data

Results flagged for a closer look

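The contrast of miR-106a between 8 weeks and 1 week was called at -1.21 on the log2 scale (limma, adjusted p = 0.0332). In that comparison 24.1% of all tested assays were called. Levels were 3.60 and 3.22 on the 1-week cards and 2.45 and 1.94 on the 8-week cards. Under the 5 other centrings the call was lost, with differences from -1.19 to -0.51. The adjusted p ranged from 0.0132 to 0.697 over the alternatives.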

How the results depend on the processing

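Of 653 member values under alternatives, 591 kept direction and side of the threshold, 11 lost a call, 6 gained one and 45 changed sign. The 11 are miR-106a from 1 week to 8 weeks, where the count of members called was 0 with all determined assays, the median, quantile normalization, no centring or undetermined values at Ct 40, and 0 to 1 with cards left out; with control RNAs the 1 called was miR-25 (1.64, adjusted p = 0.0442). Control RNAs gave 1 member called at 4 weeks (miR-106b) and 2 from 1 week to 4 weeks (miR-93 1.72, miR-25 1.73), and the trend 2 (miR-106a, miR-93). The cause of each change was not tested.

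Signs changed as follows (log2). With no centring, miR-106a was at -0.03 at 1 week, miR-106b, miR-20b, miR-93 and miR-25 at -0.27, -0.55, -0.39 and -0.21 at 4 weeks, and miR-20b, miR-93 and miR-25 at -0.21, -0.41 and -0.072 for any CCl4. It also put miR-106b at 0.24 from 1 week to 8 weeks and miR-106a, miR-106b and miR-93 at 0.41, 0.58 and 0.42 from 4 weeks to 8 weeks. With quantile normalization, miR-106a and miR-20b were at 0.33 and -0.064 at 4 weeks and 0.020 and -0.23 for any CCl4, miR-106a and miR-106b at 0.19 and 0.0034 from 1 week to 4 weeks, and miR-25 at -0.11 from 4 weeks to 8 weeks. With control RNAs, miR-106a was at 0.34 at 4 weeks and 0.11 for any CCl4, miR-106a and miR-106b at 0.10 and 0.88 from 1 week to 4 weeks, miR-106b at 0.44 from 1 week to 8 weeks and miR-25 at -0.09 from 4 weeks to 8 weeks. With all determined assays, miR-93 was at -0.025 at 8 weeks and -0.19 for any CCl4, and miR-106b at 0.077 and 0.025 from 1 week to 4 weeks and to 8 weeks. With the median, miR-93 was at -0.10 at 8 weeks and -0.13 for any CCl4.

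With cards left out, the values that changed sign ranged from -0.28 to 0.058 for miR-20b and -0.56 to 0.17 for miR-25 at 1 week, -0.32 to 0.92 for miR-20b at 4 weeks, -0.026 to 0.081 for miR-93 at 8 weeks and -0.055 to 0.13 for any CCl4. From 1 week to 4 weeks they ranged from -0.064 to 0.049 for miR-106b and -0.20 to 1.11 for miR-20b, and from 4 weeks to 8 weeks from -0.37 to 0.87 for miR-20b and -0.40 to 0.58 for miR-25.

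With the replicate number as a block, miR-106a from 1 week to 8 weeks was at -1.21 (adjusted p = 0.0423), and no member's call changed. Replicate differences of 2 groups correlated from -0.497 to 0.434 over the assays, with the highest value for the 4-week and 8-week groups. Whether same-numbered cards share more than a number is not known.

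The number of all assays called varied as well: without centring 5, 10 and 1 were called at 1, 4 and 8 weeks, and with cards left out 17 to 28 at 1 week where this moved the count of 54 by over 1.5 times, and 0 to 2 at 8 weeks. The median of all assays moved from -0.09 to -0.45 at 1 week with all determined assays and from 0.03 to 0.67 at 4 weeks with control RNAs.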
